A study of Mus musculus with 14 samples.

Results

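Col6a1, Col6a2 and Col6a3 encode the α1, α2 and α3 chains of collagen VI, and their transcript levels were followed in 14 single Tomato-positive cells from mouse bone. The members were chosen by gene symbol alone, each had 1 row in the deposited table, and they are 3 of the 9549 gene IDs it holds. The donors were adult C57BL/6 mice of the genotype Prrx1-CreERT;Tomato, in which a tamoxifen-dependent Cre expressed from the Prrx1 promoter turns on the red reporter Tomato, so that red marks cells with a history of Prrx1 promoter activity. All mice had received tamoxifen at 2 mg per 30 g of body weight on each of 3 days, and no untreated or unlabelled cells are part of the design. Marrow was flushed from tibiae, radii and ulnae, the bone was digested with collagenase, and single red cells were picked after sorting. All cells have 1 label in common and none is tied to an animal. They are therefore treated as a single sample, to which no test between groups applies, and the values below describe these cells. SDs are over the 14 cells.

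Collagen VI is a non-fibrillar collagen of the pericellular matrix. A single α1, α2 and α3 chain fold into a heterotrimer inside the cell, which pairs into dimers and tetramers before secretion and assembles outside into beaded microfilaments. The filaments link cells to fibrillar collagen and basement membranes through proteoglycans and cell surface receptors. Because a trimer takes every chain once, the relative level of the 3 transcripts within a cell is the question addressed here.

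Levels are read as log2 of FPKM plus 1, where FPKM counts fragments per kilobase of a transcript for each 1000000 mapped. The values of each cell follow 1 shared distribution, the pattern that quantile normalization leaves. A value therefore ranks a gene within its cell and says nothing of the RNA content of the cell. A gene was counted as detected at 1 or more, a level that 5066 of 9558 rows (53.0%) reached in each cell, so detection places a gene in the upper part of its cell's rows and little more. The library kit captured the 3' end of transcripts, whereas FPKM divides by the whole length. Dividing tags from one end by the whole length lowers the values of long transcripts, and Col6a3 is the longest of the 3 chains: its longest coding transcript spans 10106 bases, against 4653 for Col6a2 and 4100 for Col6a1. Comparisons between chains are given on the deposited scale per length and with that division undone. The shared distribution is that of the values after division, so multiplying by length undoes it only approximately. Differences and shares of chains on either scale describe normalized values and are not measured ratios of transcripts.

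Col6a1 (ENSMUSG00000001119) is on chromosome 10, minus strand, between 76708792 and 76726168 of GRCm38, and Col6a2 (ENSMUSG00000020241) is on the same strand there, between 76595762 and 76623630. The pair is 85161 bases apart, with 1 annotated gene between them, the long non-coding RNA gene Gm35608. Col6a3 (ENSMUSG00000048126) is on chromosome 1, also on the minus strand, between 90765923 and 90843971. In the GENCODE annotation no other gene overlaps Col6a1 or Col6a2. Gm36970 overlaps Col6a3 on the same strand, and the deposited values do not show how reads shared by both were assigned, so the Col6a3 level is uncertain to that extent.

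The promoters of the chains are shown because their levels are compared across cells below. Each sequence runs from 250 bases before to 50 bases after an annotated start, from RefSeq on GRCm38.p6, and Col6a2 has 2 such starts whose windows overlap. All 3 genes matched by symbol. Both strands were searched for 4 motifs, and matches are in capitals. They were the TATA box, searched as TATAAA, the CCAAT box, by its name, the GC box, searched as GGGCGG, and the AP-1 site, searched as TGANTCA.
Col6a1, chr10:76725995-76726294, minus strand: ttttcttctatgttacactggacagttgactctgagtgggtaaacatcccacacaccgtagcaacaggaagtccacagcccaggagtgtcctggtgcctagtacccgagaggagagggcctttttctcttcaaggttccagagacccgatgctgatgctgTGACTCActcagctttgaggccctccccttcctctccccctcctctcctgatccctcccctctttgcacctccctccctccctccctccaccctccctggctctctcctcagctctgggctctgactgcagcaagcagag
Col6a2, start nearer to the coding sequence, chr10:76623355-76623654, minus strand: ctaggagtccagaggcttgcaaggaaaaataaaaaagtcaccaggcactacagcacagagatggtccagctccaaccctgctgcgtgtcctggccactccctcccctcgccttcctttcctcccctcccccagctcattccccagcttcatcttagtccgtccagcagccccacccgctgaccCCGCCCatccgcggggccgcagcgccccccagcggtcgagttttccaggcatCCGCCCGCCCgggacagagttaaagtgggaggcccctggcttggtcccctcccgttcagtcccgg
Col6a2, start further upstream, chr10:76623581-76623880, minus strand: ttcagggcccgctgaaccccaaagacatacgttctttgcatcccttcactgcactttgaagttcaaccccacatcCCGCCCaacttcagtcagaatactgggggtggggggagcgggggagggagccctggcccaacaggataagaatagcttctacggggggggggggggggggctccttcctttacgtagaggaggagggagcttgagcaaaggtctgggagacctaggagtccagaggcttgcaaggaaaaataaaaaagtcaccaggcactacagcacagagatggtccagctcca
Col6a3, chr1:90843922-90844221, minus strand: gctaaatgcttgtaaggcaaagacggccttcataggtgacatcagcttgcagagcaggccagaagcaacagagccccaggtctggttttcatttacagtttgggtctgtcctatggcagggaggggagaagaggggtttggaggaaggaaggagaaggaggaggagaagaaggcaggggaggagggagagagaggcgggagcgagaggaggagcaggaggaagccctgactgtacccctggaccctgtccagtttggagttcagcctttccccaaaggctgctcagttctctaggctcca

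None of the 4 sequences held TATAAA, which 13.6% of the 32851 RefSeq promoters of this length held, and none held CCAAT, which 37.4% held. GGGCGG was found 3 times, on the opposite strand, in the window of the Col6a2 start nearer to the coding sequence, where 2 of the matches overlap, and once in that of the further start, against 35.7% of all promoters with at least 1 match. TGANTCA was found once, at Col6a1, and 7.81% of all promoters held it. The share of G and C was 57.3% for Col6a1, 64.3% and 56.7% for Col6a2 and 56.3% for Col6a3, against a median of 52.7% over all promoters. CpG dinucleotides numbered 3 at Col6a1, 16 and 6 at Col6a2 and 3 at Col6a3, against a median of 7. These are matches of letters in these windows.

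All 3 chains were at the detection level in 12 of 14 cells, at levels that ran from the middle of a cell's rows to its top decile. At an FPKM of 5 or more this held in 8 cells, and at an FPKM of 10 or more in 5. Col6a1 was detected in 14 of 14 cells (exact 95% interval of the share 76.8% to 100%) with a median of 4.56, a range of 1.50 to 8.05 and an SD of 2.27. Col6a2 was likewise detected in 14 cells, with a median of 5.43, a range of 1.12 to 7.62 and an SD of 2.35. Col6a3 was detected in 12 cells (exact 95% interval 57.2% to 98.2%), with a median of 3.92, a range of 0.85 to 7.91 and an SD of 2.54. The intervals cover counting error over cells only. Detection in all 14 cells was reached by 15.8% of the table's 9542 gene symbols, in at least 12 cells by 27.0% and in at least 7 cells by 51.7%. The spread was ordinary for genes of this level: among rows within 0.5 log2 units of the same mean, the SDs of Col6a1, Col6a2 and Col6a3 lay at the 47.7th, 51.6th and 66.4th percentile.

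The cells differed widely in how much of the whole family they held. Cell 5 was the highest for every chain, with Col6a1 at 8.05, Col6a2 at 7.62 and Col6a3 at 7.91. Cells 1, 7 and 9 also held every chain above 6: cell 1 had 7.08, 6.47 and 7.32 in the same order of chains, cell 7 had 6.33, 6.19 and 7.21, and cell 9 had 7.22, 7.29 and 6.44. In these 4 cells the chains stood between the 87.7th and the 95.2nd percentile of their cell's rows, and they spanned 0.43 to 1.01 log2 units.

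At the other end, cells 8 and 14 were low for every chain. Cell 8 had Col6a1 at 1.82, Col6a2 at 1.39 and Col6a3 at 1.46, and cell 14 had 1.50, 1.12 and 0.92. Cell 13 was close to them for Col6a2, at 1.12, and Col6a3, at 0.85, and held Col6a1 at 3.02. In cells 8 and 14 the chains lay between the 45.7th and the 57.6th percentile of the rows, a level that an arbitrary row of the table would often reach, so these values do not show expression of collagen VI in those cells.

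In the 7 other cells the chains were apart. Cells 3, 6 and 12 had Col6a1 above Col6a2 above Col6a3: cell 3 had 6.29, 5.42 and 4.44, cell 6 had 4.25, 3.34 and 2.75, and cell 12 had 6.37, 5.86 and 3.29. Cell 10 held Col6a1 and Col6a2 at 4.86 and 5.44 beside Col6a3 at 1.34. Cells 4 and 11 were the reverse, with Col6a3 at 6.28 and 5.00 beside Col6a1 at 2.48 and 2.01 and Col6a2 at 4.02 and 1.90. Cell 2 was high for Col6a2 alone, at 6.19, with Col6a1 at 3.20 and Col6a3 at 3.39.

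**Figure D1:**
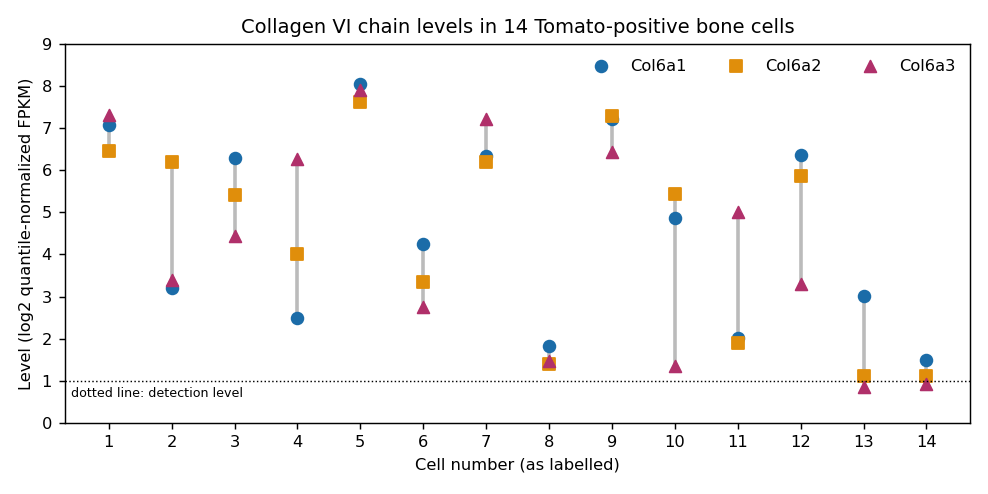
Levels of Col6a1 (circles), Col6a2 (squares) and Col6a3 (triangles) in log2 quantile-normalized FPKM on the vertical axis, for each of the 14 cells by its labelled number on the horizontal axis. Grey bars join the lowest and the highest chain of a cell, and the dotted line is the detection level of 1. The chains lie within 1.01 of each other in cells 1, 5, 7, 8, 9 and 14 and up to 4.10 apart in cell 10.

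Col6a1 and Col6a2 were within 1 log2 unit of each other in 11 of 14 cells, and the differences of Col6a3 from either partner spread more widely. Col6a1 minus Col6a2, per length, had a median of 0.40 log2 units with an SD of 1.17 and was positive in 10 of 14 cells. The difference was beyond 2 log2 units in a single cell, cell 2, at -2.99. Col6a3 minus Col6a1 had a median of -0.46, an SD of 2.06 and a range of -3.52 in cell 10 to 3.79 in cell 4, with 7 cells within 1 unit and 5 beyond 2. Col6a3 minus Col6a2 had a median of -0.23, an SD of 1.93 and a range of -4.10 in cell 10 to 3.10 in cell 11, with 8 cells within 1 unit and 5 beyond 2. All 3 medians were smaller than the SD over the cells, which measures scatter between cells and not the error of a median. Whether there is a fixed offset between the chains was not tested.

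Scaled as shares of the back-transformed 3-chain sum per length, Col6a1 had a median of 38.5% (range 4.77% to 78.3%), Col6a2 of 27.8% (7.45% to 80.3%) and Col6a3 of 22.6% (2.13% to 84.3%). An even stoichiometry would give each chain the same share. On this scale cell 5 came near to that, with 37.7% Col6a1, 27.9% Col6a2 and 34.4% Col6a3. Single chains held more than 50% in 8 cells: Col6a1 in cells 3, 6, 12 and 13, Col6a2 in cells 2 and 10, and Col6a3 in cells 4 and 11. The shares of cells 8, 13 and 14 rest on low levels.

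Undoing the division by length turned the place of Col6a3. Per length it was the lowest chain in 7 cells and the highest in 4. With the length restored it was the lowest in 2 cells, cells 10 and 12, and the highest in 8. The median of Col6a3 minus Col6a1 then became 0.62 (SD 2.28, positive in 9 cells), and that of Col6a3 minus Col6a2 became 0.57 (SD 2.09, positive in 11 cells). Col6a1 minus Col6a2 moved little, to 0.29 (SD 1.29, positive in 8 cells). The median share of Col6a3 became 40.4%, against 28.3% for Col6a1 and 22.7% for Col6a2. Cell 5 was no longer near an even share, with 24.5% Col6a1, 20.6% Col6a2 and 55.0% Col6a3. Col6a1 held more than 50% in 1 cell, against 4 per length. Col6a2 did so in 2 cells on both scales, and Col6a3 in 5, against 2. The place of Col6a3 by median difference and median share thus depended on the length scale. The SD of Col6a3 against either partner was at least 1.93 on both scales. The order of Col6a1 and Col6a2 also depended on the measure. The median level of Col6a2 was above that of Col6a1, 5.43 against 4.56 per length and 7.62 against 6.54 with the division undone. The median of their difference within cells was in favour of Col6a1 on both scales.

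**Figure D2:**
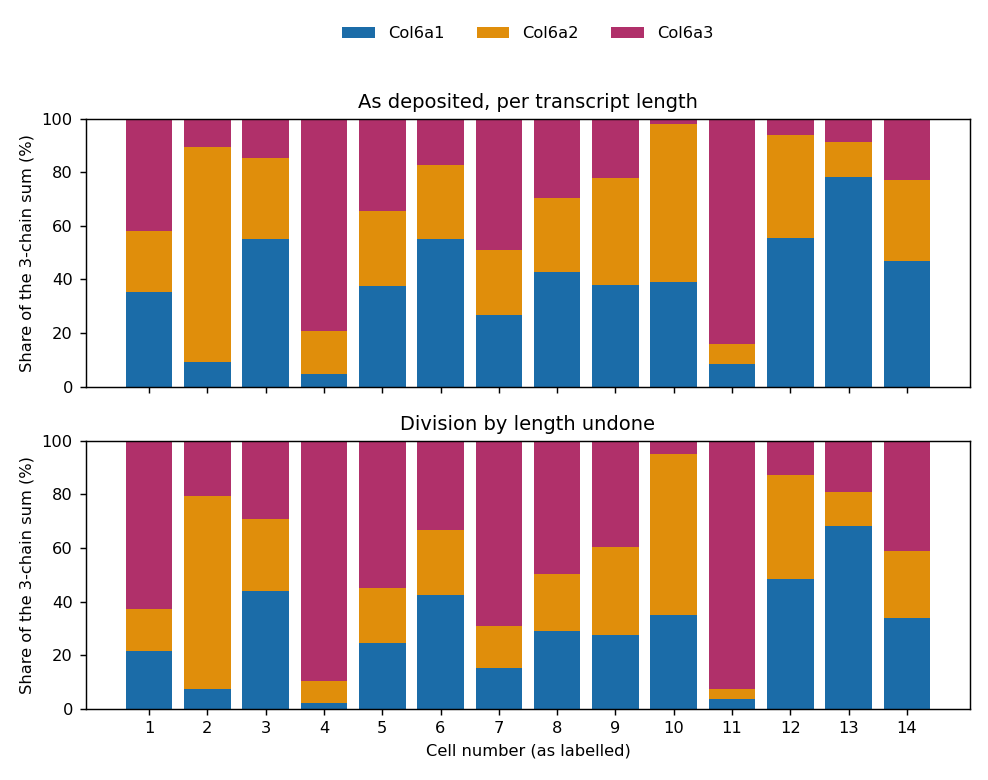
Share of each chain in the sum of the 3 back-transformed chain levels, in percent on the vertical axis, for each cell by number. The upper panel is per transcript length as deposited and the lower panel has the division by length undone. Col6a3 (top segment) fills 84.3% of cell 11 and 2.13% of cell 10 in the upper panel, and 92.6% and 4.73% in the lower.

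Across the cells, Col6a1 and Col6a2 followed each other more closely than either followed Col6a3. The Spearman correlation over the 14 cells was 0.90 for Col6a1 with Col6a2, 0.65 for Col6a1 with Col6a3 and 0.79 for Col6a2 with Col6a3, and Pearson correlations were 0.87, 0.64 and 0.69. These are descriptions over cells of 1 sample, which share a table normalized as a whole, and the differences between the 3 correlations were not tested. Among the 9541 other symbols, Col6a2 was the most similar to Col6a1 by either measure, and Col6a1 the most similar to Col6a2. Col6a3 ranked 3rd by Spearman and 15th by Pearson in likeness to Col6a2, and 52nd and 39th in likeness to Col6a1. Seen from Col6a3, Col6a2 ranked 6th by Spearman and 35th by Pearson, and Col6a1 76th and 70th.

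Without cells 5 and 14, the 2 farthest from the Col6a1 median, the correlation of Col6a1 with Col6a3 was 0.48. The same step gave 0.85 for Col6a1 with Col6a2, and 0.68 for Col6a2 with Col6a3 without cells 13 and 14. Leaving out the farthest cells narrows the range, which by itself tends to lower a correlation, so the step cannot show what is particular to a pair. The cells also fall into 2 sets by which genes are listed at 0, cells 3, 4, 11, 12 and 13 on one side and the other 9 cells on the other, a division that the labels do not explain. Within the larger set the correlations were 0.95, 0.83 and 0.90. The smaller set has 5 cells, too few for a correlation. The widest departures of Col6a3 from Col6a1 were in cells 4, 11 and 12 of the smaller set and in cell 10 of the larger.

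**Figure D3:**
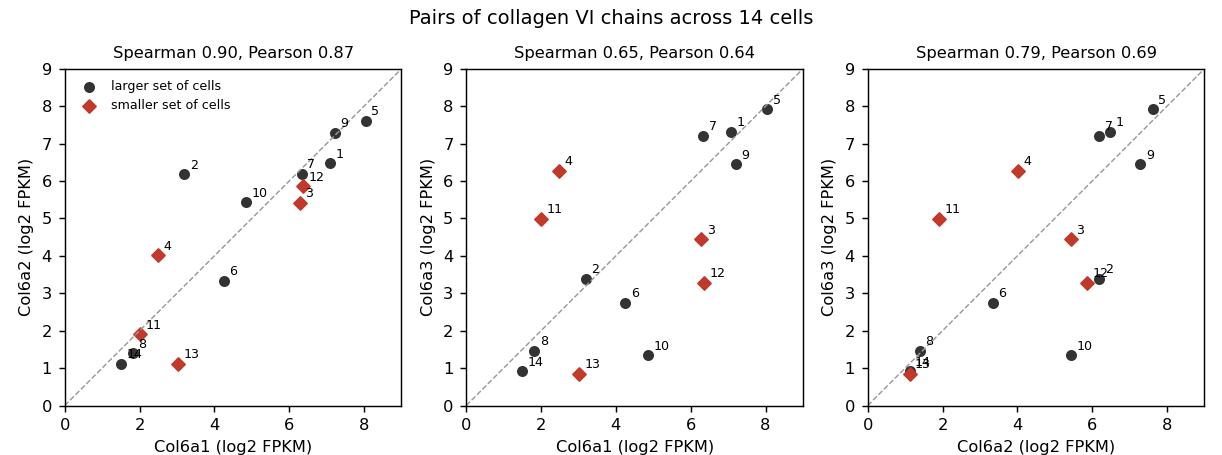
Each panel plots 2 chains against each other in log2 FPKM, 1 point per cell with its number, circles for the larger set of 9 cells and diamonds for the smaller set of 5. The dashed line marks equal levels per length. For Col6a1 with Col6a2 (Spearman 0.90) all cells but 2, 4 and 13 lie within 1 log2 unit of the line, against 7 cells for Col6a3 with Col6a1 and 8 for Col6a3 with Col6a2.

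Other collagens made of paired chains were set beside collagen VI on the same per-length scale. Col6a1 minus Col6a2 had an SD of 1.17 over the cells, against 0.97 for Col1a1 minus Col1a2, the chains of type I collagen, 1.14 for Col4a1 minus Col4a2 of basement membrane collagen, and 1.55 for Col5a1 minus Col5a2 of type V collagen. The Spearman correlations were 0.90 for the collagen VI pair and 0.92, 0.90 and 0.85 for the others. Col6a3 with either partner had a wider SD of the difference, 2.06 and 1.93, than any of these pairs, a comparison that was not tested. Col1a1 minus Col1a2 had a median of -1.45, beyond its SD. The medians of Col4a1 minus Col4a2 and Col5a1 minus Col5a2, 0.29 and -1.05, were within theirs, as were the collagen VI medians.

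Within the collagen family the 3 chains ranked high. Of the 28 rows with a collagen chain symbol, per-length medians placed Col6a2 5th, Col6a1 7th and Col6a3 9th, behind Col1a2 at 8.78, Col1a1 at 7.45, Col3a1 at 7.07 and Col5a2 at 6.64. Undoing the division by length gave ranks of 6, 9 and 7. Col6a1 and Col6a2 were among the 7 collagen genes detected in all 14 cells. The other chains of the family, which can take the place of α3 in the trimer, were nearly absent from the measured rows. Col6a5 was detected in 1 cell, cell 9, at 3.87, and was at most 0.28 in the others. Col6a4 and Col6a6 had no row and were not analysed here.

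Receptors of collagen VI varied in how widely they were detected. Of 9 genes listed, the table held 6, and 4 reached the detection level in at least 7 cells, as did 51.7% of all symbols. Itgb1, the β1 integrin subunit shared by the collagen-binding integrins, was found in each of the 14 cells (median 5.66, range 2.88 to 9.13). Its partner subunits were patchy: Itga11 reached the detection level in 7 cells and peaked at 5.76 in cell 2, and Itga10 in 4 cells, peaking at 5.80 in cell 6. Cspg4, the NG2 proteoglycan, was detected in cells 4, 5 and 11, at 2.39, 1.75 and 3.88.

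The 2 anthrax toxin receptor genes, whose proteins bind collagen VI at the cell surface, differed in pattern. Antxr1 reached the detection level in 10 cells, its median was 2.81, and its Spearman correlation with the mean of the 3 chains was 0.31. Antxr2 ran opposite to the chains. Its 5 highest levels, 4.87, 4.69, 3.92, 2.93 and 2.85, belonged to cells 6, 11, 8, 14 and 13, and these are the 5 cells with the lowest collagen VI means, 1.18 to 3.45. In the other 9 cells, where that mean was 3.88 to 7.86, Antxr2 ranged from 0 in cell 5 to 1.38 in cell 4.

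Over the 14 cells the Spearman correlation of Antxr2 with the collagen VI mean was -0.86 (Pearson -0.78), the most negative of the 4929 symbols detected in at least 7 cells. By chain it was -0.80 for Col6a1, -0.84 for Col6a2 and -0.66 for Col6a3. Cells 6, 8, 11 and 14 were also the richest in blood cell markers, and Antxr2 correlated with the mean of those markers at 0.56. Without these 4 cells the correlation of Antxr2 with the collagen VI mean was -0.83, and within the larger set of cells it was -0.90. Antxr2 had a median of 1.01 and reached the detection level in 7 cells. Most cells in both of these subsets were below that level, so the order within them rests largely on low values. Antxr2 belonged to the receptor list, but its place at the end of the order was noticed after its values had been seen.

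**Figure D4:**
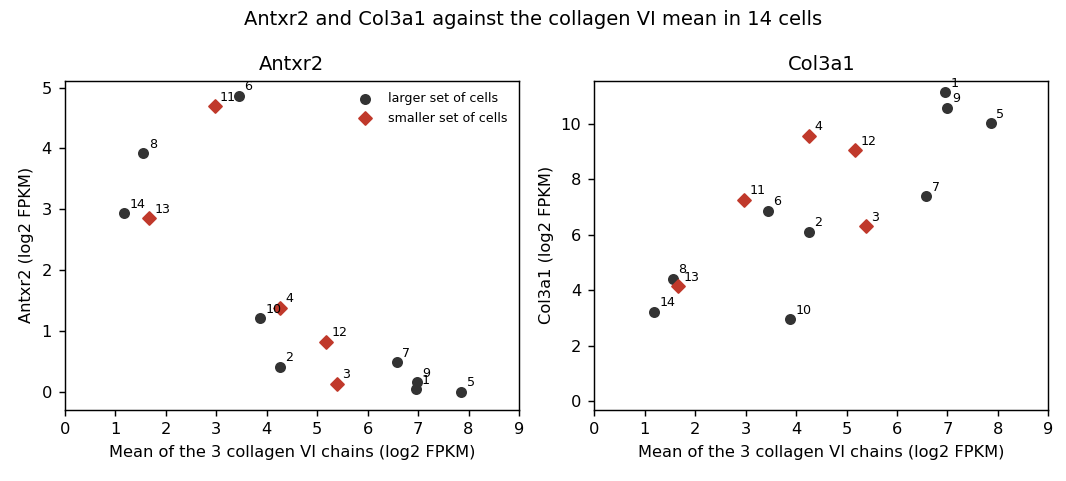
Antxr2 (left) and Col3a1 (right) in log2 FPKM on the vertical axes against the mean of the 3 collagen VI chains on the horizontal axes, 1 point per cell with its number, circles for the larger and diamonds for the smaller set of cells. Antxr2 is at 2.85 to 4.87 in the 5 cells with the lowest collagen VI means and at 0 to 1.38 in the others. Col3a1 is highest, at 10.03 to 11.14, in cells 1, 5 and 9.

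Matrix partners of collagen VI ranged widely in level, with a median of 2.35 over the medians of the 15 measured genes. Of 20 genes listed, 15 were in the table, 12 of them at the detection level in at least 7 cells and 5 throughout. Over all symbols these shares were 51.7% and 15.8%. Dcn (decorin), a small proteoglycan that binds collagen VI, had a median of 12.62 and a Spearman correlation of 0.24 with the collagen VI mean. Bgn (biglycan) had a median of 8.61 and a correlation of 0.50, and Lum (lumican), with a range of 4.56 to 12.14, one of 0.51. Fn1 (fibronectin) had a median of 8.07 and a correlation of 0.08. The basement membrane collagen genes Col4a1 and Col4a2 had medians of 4.40 and 2.14 and correlations of 0.38 and 0.32. In total 2 of the 12 reached a correlation of 0.5 or more, against 4.34% of all 4929 symbols, and Vwf (von Willebrand factor) was at -0.55, a level of -0.5 or less that 3.96% of the symbols reached. The median correlation of the 12 was 0.20, against 0.002 over all these symbols.

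All 20 genes listed for collagen folding and processing were in the table, 19 of them detected in at least 7 cells. P4hb and Serpinh1, the disulfide isomerase subunit of prolyl hydroxylase and the collagen chaperone HSP47, were found in every cell, with medians of 10.12 and 6.82, and correlations of -0.03 and 0.25 with the collagen VI mean. P4ha1, a catalytic subunit of prolyl 4-hydroxylase, had a correlation of 0.62 (median 4.27), and the lysyl oxidase relative Loxl1 of 0.53 (median 2.07). Bmp1, the protease that trims procollagens, had a median of 2.52 and a correlation of -0.27. Mmp9, a gelatinase abundant in neutrophils, was at -0.61 and was highest in cell 14, at 9.29. The median correlation of the 19 was 0.18. Counted together, the receptor, partner and processing lists held 41 distinct genes with a row, of which 35 (51.7% over all symbols) were detected in at least 7 cells.

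Among the fibrillar collagens Col3a1 was the most similar to the chains. All 9 listed genes were measured, 8 of them at the detection level in at least 7 cells (51.7% over all symbols). Col3a1, the type III collagen gene of reticular fibres, correlated with the collagen VI mean at 0.80, and with Col6a3, Col6a2 and Col6a1 at 0.88, 0.70 and 0.67. Its level was 11.14, 10.59 and 10.03 in cells 1, 9 and 5 and 9.57 in cell 4, and it was lowest in cell 10, at 2.96. The correlations of Col1a1 and Col1a2 with the collagen VI mean were 0.06 and 0.17, and those of Col5a1 and Col5a2 were 0.15 and 0.34. The difference between type III and type I in this was not tested. Of 10 other listed collagens the table held 8, and the 7 detected in at least 7 cells had a median correlation of 0.32. The mean of the 8 correlated with Col6a3 at 0.72 and with Col6a1 at 0.50. Within this list the gene nearest to Col6a3 was Col12a1, a fibril-associated collagen, at 0.60.

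**Figure D5:**
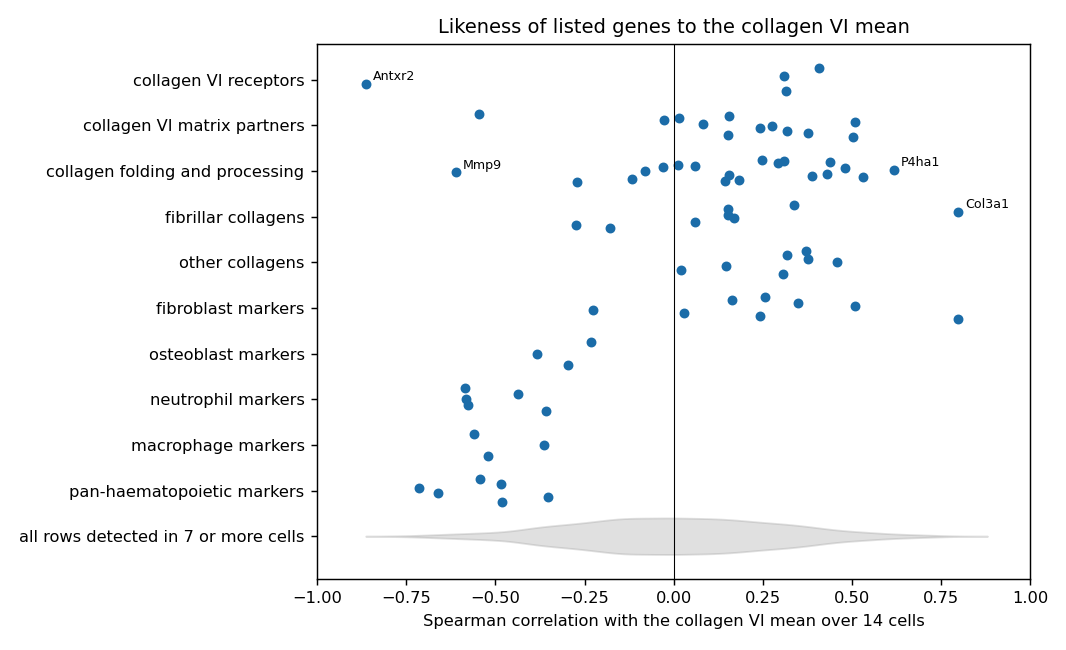
Spearman correlation over the 14 cells with the mean of the 3 collagen VI chains, on the horizontal axis, for each listed gene detected in at least 7 cells (points), for 10 of the 12 lists, above the distribution over all 4929 such symbols (grey, bottom row). Antxr2 at -0.86 and Col3a1 at 0.80 stand at the ends, and the neutrophil, macrophage and pan-haematopoietic markers lie below 0.

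Collagen VI was then set beside markers of cell types. All 8 fibroblast markers were found in at least 7 cells (51.7% over all symbols) and 7 of them in every cell (15.8%). Their mean correlated with the collagen VI mean at 0.49. By gene, the fibroblast markers ran from -0.23 for Gsn to 0.80 for Col3a1. Col3a1 is also in the fibrillar collagen list, and Dcn and Lum are also in the matrix partner list. Of 10 osteoblast markers 8 were measured and 3 passed the level in at least 7 cells, and the correlation of their mean was -0.21. By chain it was -0.28 for Col6a3, -0.12 for Col6a2 and -0.002 for Col6a1. By gene, correlations with the collagen VI mean ran from -0.38 for Ifitm5, an osteoblast membrane protein gene, to 0.20 for Sp7. The 3 cells with the highest Ifitm5 were cell 6 at 11.72, cell 13 at 10.60 and cell 10 at 9.004. They held Col6a3 at 2.75, 0.85 and 1.34 beside Col1a1 at 11.58, 12.96 and 10.96. In the same order of cells, Col6a1 was at 4.25, 3.02 and 4.86 and Col6a2 at 3.34, 1.12 and 5.44. Low Col6a3 was not particular to these cells: cells 8 and 14 had it at 1.46 and 0.92, with Ifitm5 at 1.84 and 1.58. Ibsp, Spp1, Sp7, Runx2 and Alpl also peaked in cells 6, 10 or 13. Phex peaked in cell 9, at 5.73, and Dmp1 in cell 11, at 6.425, where Col6a3 was at 6.44 and 5.00. Of 6 chondrocyte markers 4 were measured, each at the detection level in at least 7 cells, and the correlation of their mean was 0.18. The median of the correlations of single genes detected in at least 7 cells was 0.29 for chondrocyte markers. It was 0.25 for fibroblast and -0.30 for osteoblast markers. The cartilage transcription factor gene Sox9 correlated with Col6a1 at 0.66 and with Col6a3 at 0.28. The other measured chondrocyte markers differed from it. In the same order of chains, Comp was at 0.48 and 0.49, Col2a1 at 0.22 and 0.04, and Col11a2 at -0.002 and -0.49.

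Blood cell markers ran against the chains. Of 23 listed neutrophil, macrophage and pan-haematopoietic genes, 19 had a row, and their mean was lowest in cell 4, at 2.22, and highest in cell 14, at 9.68. Its Spearman correlation with the collagen VI mean was -0.53. By chain it was -0.46 for Col6a1, -0.46 for Col6a2 and, weaker, -0.30 for Col6a3. Cells 14, 11, 6 and 8 had the highest marker means, 9.68, 8.38, 7.58 and 6.74, with collagen VI means of 1.18, 2.97, 3.45 and 1.56. Cell 13 had a collagen VI mean of 1.66 beside a blood marker mean of 3.95. The part of the blood cell signal in the low collagen VI values of cells 6, 8, 11, 13 and 14 was not tested. Correlations of -0.5 or less were counted among genes detected in at least 7 cells. They were held by 3 of 5 neutrophil, 2 of 3 macrophage and 3 of 6 pan-haematopoietic markers, against 3.96% of all 4929 symbols. The medians were -0.58, -0.52 and -0.51. Markers detected in fewer cells ran from -0.69 for Laptm5 to 0.10 for Mpo. Ptprc, the leukocyte antigen CD45 gene, had its 3 highest levels in cells 11, 14 and 8, at 8.31, 6.51 and 3.27, and was at most 1.21 elsewhere. Without cells 6, 8, 11 and 14 the correlations among the chains were 0.88 for Col6a1 with Col6a2, 0.66 for Col6a1 with Col6a3 and 0.77 for Col6a2 with Col6a3.

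Genes named for regulation and growth signals showed little likeness to the chains. All 7 passed the detection level in at least 7 cells (51.7% over all symbols), and their median correlation with the collagen VI mean was 0.01. Prrx1, whose promoter drives the Cre, was at 0.38, and the growth factor receptor gene Pdgfra at 0.16. Tgfb1, a growth factor gene of matrix synthesis, was at -0.16.

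The genes most like the collagen VI mean among the 4929 symbols were Fhl2, a LIM domain protein gene (Spearman 0.88), Gnb1, a G protein β subunit gene (0.81), Mtif3, a mitochondrial translation initiation factor gene (0.80), and Col3a1 (0.80). They were followed by Tmem256 (0.76), Tipin (0.75), Rnps1 (0.75), Aebp1, which encodes a secreted collagen-binding protein (0.73), the nucleoside transporter gene Slc29a1 (0.73) and the calmodulin gene Calm2 (0.73). Fhl2 had a median of 1.36 (9 cells at the detection level) and Mtif3 of 0.84 (7 cells), so their order rests partly on low values. Without cells 6, 8, 11 and 14 the correlation of Fhl2 was 0.72 and that of Col3a1 0.83. Ranked by Pearson correlation, 2 of these 10 genes, Col3a1 and Aebp1, stayed among the first 10. Both are genes of the extracellular matrix, and both were detected in all 14 cells. Tmem256 and Calm2 were also detected in all 14 cells and did not stay.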

How the data were processed

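The deposited table holds log2 values, read from its name and its range as log2(FPKM + 1), with the same distribution in each of 14 cells, as after quantile normalization by the authors; neither step is recorded in the labels. Per the submitters' processing notes, TopHat2 and Cufflinks were among the tools and GRCm38 was the build, with no version given. The sources used here give no counts, so the depth is unknown. The 14 columns were matched to samples by title. Where a symbol stood in several rows, the first one counted. Python 3.11.15, NumPy 2.4.6, pandas 2.3.3, SciPy 1.17.1 and matplotlib 3.10.9 were used. Transcript lengths are sums of exons of protein-coding transcripts in GENCODE M21. Values were back-transformed (2 to the power of the value, minus 1), multiplied by the longest length in kilobases and put back on the scale to undo the division. Ranks of likeness use Spearman correlation over the 14 cells. Only the ranking step was tried on simulated data, which says nothing about the ranks reported here. The 12 gene lists were the receptors, matrix partners and processing genes of collagen VI, fibrillar and other collagens, regulators and growth signals, and markers of fibroblasts, osteoblasts, chondrocytes, neutrophils, macrophages and all blood cells. Named are the chains, list genes and the 10 most similar genes. Members and lists were chosen with earlier results of these data known. No 2 cells held the same values: the highest Spearman correlation between cells was 0.627.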

Additional observations from a re-analysis of the deposited data

How the results depend on the processing

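No paired analysis was possible because all cells belong to 1 group and no result comes from a test. The median differences between chains kept their sign under other pseudocounts (0.1 and 10), in cells with both chains detected, as percentiles, and with cells 11 and 14, cells 6, 8, 11 and 14 or each set of cells taken apart. Their sizes moved more: with a pseudocount of 10 they were 0.12 for Col6a1 minus Col6a2, -0.12 for Col6a3 minus Col6a1 and -0.04 for Col6a3 minus Col6a2, against 0.40, -0.46 and -0.23, and Col6a3 minus Col6a1 was -1.84 in the smaller set of cells and -0.36 in the larger. Undoing the division by length reversed Col6a3 minus Col6a1, which was 0.62 with the longest and 0.34 with the median transcript, against -0.46, and Col6a3 minus Col6a2, which was 0.57 and 0.41, against -0.23. Cells with Col6a3 the lowest chain then numbered 2 and 3, against 7. The alternative's own construction sets this direction, as it multiplies each chain by its length. Cells with all 3 chains detected numbered 5 at an FPKM of 10, against 12, and listed genes of the receptor, partner and processing lists in at least 7 cells numbered 18, against 35. Within the larger set of cells the Spearman correlations were 0.95, 0.83 and 0.90, Pearson gave 0.69 for Col6a2 with Col6a3, and leaving out the 2 cells farthest from the median gave 0.85, 0.48 and 0.68. For the smaller set no correlation was computed. Of the 10 most similar genes, 2 stayed under Pearson. The cause of the shifts in correlation was not tested. Leaving out each cell in turn gave 0.38 to 0.43 for Col6a1 minus Col6a2, -0.57 to -0.36 for Col6a3 minus Col6a1, -0.27 to -0.19 for Col6a3 minus Col6a2, and correlations of 0.88 to 0.95, 0.57 to 0.74 and 0.74 to 0.86. Settings without the farthest cells, and all those for single genes, were added after the data had been seen.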
